A study of Mus musculus with 4 samples.

Results

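Major urinary proteins are small lipocalins that hepatocytes make and secrete in large amounts, and that leave the body in the urine, where they carry volatile pheromones. Mup20, also called darcin, is itself a male attractant. In mouse liver most Mup genes are expressed more strongly in males, under the pulses of growth hormone that act through the receptor Ghr and the transcription factor Stat5b, and they lie in a single cluster with a central array of recently duplicated, nearly identical genes and a more diverged outer group.

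The genes described here are the 6 listed paralogs Mup3, Mup7, Mup11, Mup17, Mup20 and Mup21, found by their symbol among the 32287 features that were counted, 22 of which bear the name Mup and a number. They were measured by single-nucleus RNA-seq, which counts RNA molecules by their unique molecular identifiers (UMIs), in 4 libraries of frozen mouse liver, 1 library for each of 4 groups. Bl/6 mice ate a chow diet (CD) or a low-protein diet (LPD) for 1 week before and 2 weeks after plasmids were injected hydrodynamically into the tail vein, together with the Sleeping Beauty transposase, an enzyme that inserts DNA into the genome of some hepatocytes. The oncogene groups received human c-MET and a truncated human β-catenin (the CTNNB1 gene), and the control groups received vector. Values are given below with CD before LPD and, within a diet, the library labelled control before that labelled oncogene; this is called library order. All mice shared the injection and the transposase, and uninjected mice were not analysed here. For its tumour work in general the study's methods name male mice of 6 to 8 weeks unless stated otherwise, and the number of mice behind a library is not given in the sources used here.

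A pair of library properties bears on every value below. The transgene UMIs went against the CD labels: 100 were counted in the library labelled CD control, 0 in the library labelled CD oncogene, 0 in the library labelled LPD control and 6 in the library labelled LPD oncogene. Each direction between the CD libraries therefore depends on labels that the transgenes contradict. The CD libraries were also deeper, with total UMIs of 56514058 and 62869348 against 23260800 and 23172463, and their nuclei held more mitochondrial RNA, with medians of 2.42% and 0.983% against 0.09997% and 0.127%. Diet, depth and mitochondrial share cannot be told apart here. Any pair of libraries shared between 18 and 40 barcodes.

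The 6 genes lie on the minus strand of chromosome 4 of the mouse genome (GRCm38, GENCODE M21), all protein-coding. Mup7 is at chr4:60066469-60070475, Mup11 at chr4:60658466-60662411, Mup17 at chr4:61591929-61595871, Mup20 at chr4:62050234-62054158, Mup3 at chr4:62083476-62087342 and Mup21 at chr4:62147932-62150863. Mup21 has 6 exons in its chosen transcript and each of the others has 7, and the encoded proteins are 180 to 184 residues long. The coding sequences fell into close relatives and more distant ones. Mup7, Mup11 and Mup17 were 98.4% to 98.7% identical to each other, Mup20 was 90.1% to 91.4% identical to these genes, and Mup3 and Mup21 were 94.96% identical to each other but 82.7% to 85.0% identical to the first group. The stretch of 90 coding bases from a shared GAAGAA, which begins at coding base 55 to 67, shows the same grouping. Capitals mark the bases that are unlike Mup11.
Mup7: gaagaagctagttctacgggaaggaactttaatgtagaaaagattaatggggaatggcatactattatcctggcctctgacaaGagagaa
Mup11: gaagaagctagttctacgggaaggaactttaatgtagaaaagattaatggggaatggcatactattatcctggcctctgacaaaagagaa
Mup17: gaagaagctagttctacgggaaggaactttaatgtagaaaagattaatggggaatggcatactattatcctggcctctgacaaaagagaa
Mup20: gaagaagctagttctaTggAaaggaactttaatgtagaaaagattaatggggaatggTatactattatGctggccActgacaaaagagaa
Mup3: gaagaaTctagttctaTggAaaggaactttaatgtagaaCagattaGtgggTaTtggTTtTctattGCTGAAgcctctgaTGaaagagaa
Mup21: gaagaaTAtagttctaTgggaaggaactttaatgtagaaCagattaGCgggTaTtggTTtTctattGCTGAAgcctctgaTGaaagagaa

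The differences from Mup11 numbered 1, 0, 5, 18 and 19 in Mup7, Mup17, Mup20, Mup3 and Mup21. This likeness limits what a count of 1 gene means, since a read that matches several genes equally well is not counted for any of them. Of all words of 90 bases in the spliced transcript, 96.0% of those of Mup3 and 93.9% of those of Mup21 occurred in no other annotated gene. The share was 59.2% for Mup20, whose other words are shared with the pseudogene Mup-ps19. It was 36.8% for Mup17, 15.2% for Mup11 and 11.1% for Mup7, which shared most with Mup13, Mup18 and Mup15, in that order. In the last 400 words of Mup7, where the 3′ assay reads, 0.5% were its own. Counts of Mup7, Mup11 and Mup17 are thus uncertain as single genes, and for that reason the sum over the 6 genes is given beside them. Reads that match several genes equally well are missing from this sum too.

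The promoters showed the same grouping. The RefSeq promoter table (GRCm38.p6) held windows for 5 of the 6 genes and none for Mup20, and the window of Mup7 lay further 5′ and was not compared. The 107 bases that end with the TATA motif, in capitals, are printed for the other 4 genes, which were chosen because their windows contain TATATAA. They lie on the minus strand at chr4:60662391-60662497 for Mup11, chr4:61595851-61595957 for Mup17, chr4:62087322-62087428 for Mup3 and chr4:62150843-62150949 for Mup21.
Mup11: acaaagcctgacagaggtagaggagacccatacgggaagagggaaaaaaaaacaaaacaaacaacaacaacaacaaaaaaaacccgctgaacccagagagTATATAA
Mup17: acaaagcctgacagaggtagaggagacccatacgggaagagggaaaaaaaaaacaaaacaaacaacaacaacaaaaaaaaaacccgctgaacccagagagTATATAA
Mup3: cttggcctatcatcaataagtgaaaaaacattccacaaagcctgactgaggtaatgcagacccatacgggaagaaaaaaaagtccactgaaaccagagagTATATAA
Mup21: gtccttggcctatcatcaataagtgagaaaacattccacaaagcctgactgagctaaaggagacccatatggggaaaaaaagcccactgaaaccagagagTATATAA

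Mup11 and Mup17 were 98.1% identical over these bases and Mup3 and Mup21 88.8%, whereas a gene of the first pair and a gene of the second were 55.1% to 57.9% identical. The motif TATATAA, searched on both strands, was present in 13 of 14 Mup windows and in 3.24% of all 32851 windows. The block CCAGAGAGTATATAAGGACAAGCAAAGG, which contains it, was present in 10 windows, all of Mup genes. The letters TTCNNNGAA, the core of a STAT5 site, were in 0 of the 14 Mup windows and in 8.30% of all windows. These matches describe a window of 300 bases and no more.

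Hepatocyte nuclei, 6 of 21 clusters, numbered 7979, 9665, 7754 and 6833 in the 4 libraries, or 32231 of 42877 nuclei kept. All 12 hepatocyte markers, among them Alb and Apob, had at least 1.5-fold more UMIs per nucleus there than in the other cell classes of the same library. Scaled to total UMIs, 8, 8, 10 and 12 of the 12 did. CPM is the summed UMIs of a gene in these nuclei over their summed mouse UMIs. Each value has an exact Poisson 95% interval, which covers counting error only. With 1 library per group there is no replicate, and no test was made over nuclei.

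Summed over the 6 genes, hepatocytes held 3533 CPM (3516 to 3550) in the library labelled CD control, 2230 (2218 to 2243) in that labelled CD oncogene, 4871 (4841 to 4902) in that labelled LPD control and 3420 (3394 to 3447) in that labelled LPD oncogene. The sum over all 22 Mup features was 3842, 2396, 5100 and 3484 CPM, so the 6 genes made up 92.0%, 93.1%, 95.5% and 98.2% of the Mup UMIs counted. The library labelled LPD control stood highest and that labelled CD oncogene lowest on both sums.

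The outer genes Mup3, Mup20 and Mup21 did not have a common order across libraries. Mup20 was counted at 1230, 960, 1775 and 2078 CPM, and both LPD libraries lay above both CD libraries. Mup3 was at 1320, 990, 2045 and 1156 CPM, with the library labelled LPD control highest. Mup21, at 53.6, 26.9, 110 and 27.7 CPM, was likewise highest in the library labelled LPD control, and its intervals overlapped in the 2 libraries labelled oncogene (25.5 to 28.3 and 25.4 to 30.2 CPM).

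The central genes Mup7, Mup11 and Mup17 had an order that followed the injection labels as given. Mup11 was at 576 and 524 CPM in the libraries labelled control, and at 133 and 61.7 CPM in those labelled oncogene on CD and LPD. Mup7 was at 263, 94.3, 343 and 87.1 CPM. Mup17 was at 90.6, 25.9, 74.3 and 8.99 CPM. For each of the 3 genes both libraries labelled control lay above both labelled oncogene. With the CD labels exchanged, as the transgene UMIs would have it, this order does not hold: the CD library with transgene UMIs is then the higher one on CD, and the library labelled LPD oncogene the lower one on LPD. Of the other Mup features, Mup14 (97.8, 34.7, 20.9 and 13.1 CPM), Mup10 (47.0, 41.6, 36.2 and 18.7 CPM) and Mup1 (50.8, 16.4, 31.8 and 3.08 CPM) had the highest counts, and for Mup1 the 2 libraries labelled control were again the highest.

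**Figure D1:**
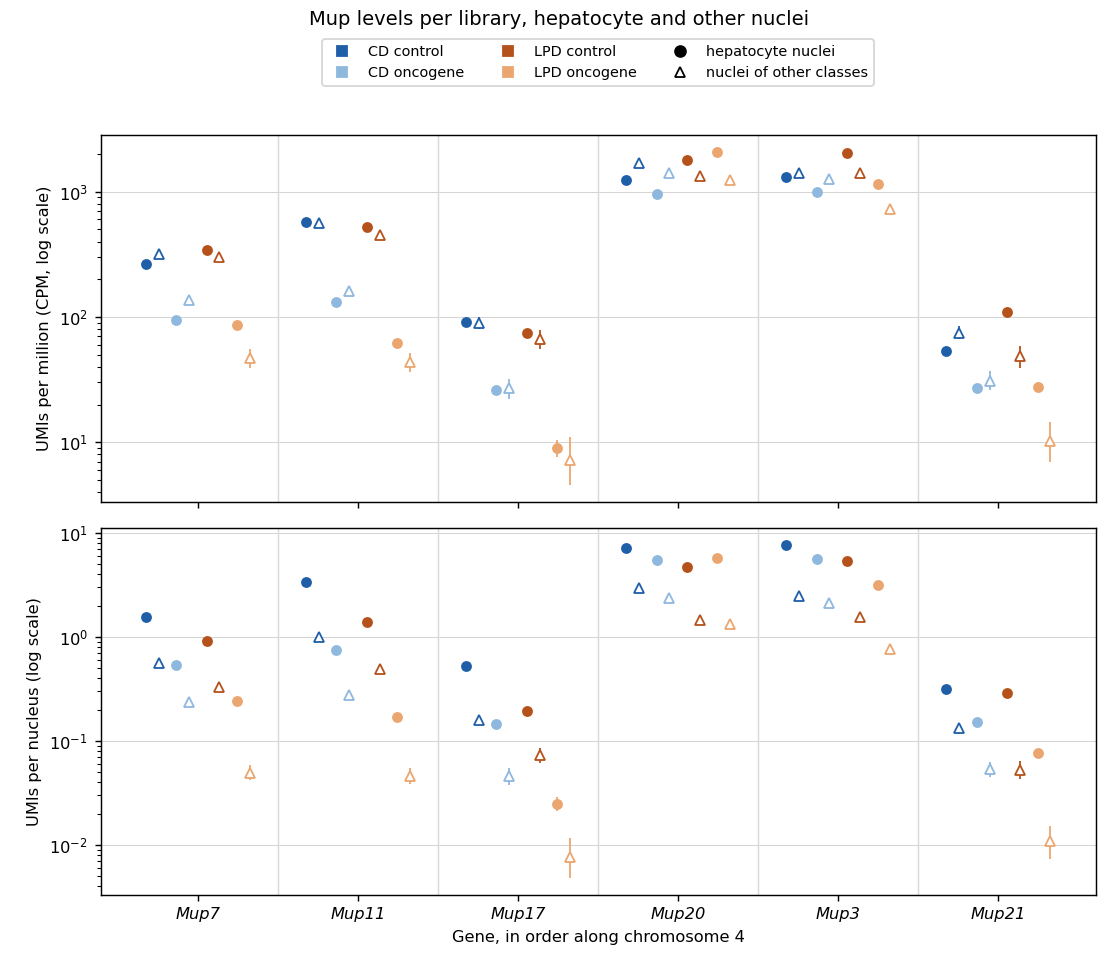
Each Mup gene in each library, in CPM (top) and in UMIs per nucleus (bottom), both on log axes, for hepatocyte nuclei (filled circles) and nuclei of other cell classes (open triangles); bars are 95% Poisson intervals. Mup7, Mup11 and Mup17 are lowest in the 2 libraries labelled oncogene, and in the CD libraries the circles lie near or below the triangles in CPM but above them per nucleus.

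As shares of the UMIs of the 6 genes, which are not shares of molecules because the genes differ in how many reads can be assigned, Mup20 and Mup3 were the main components. Mup20 made up 34.8%, 43.05%, 36.4% and 60.8%, and Mup3 37.4%, 44.4%, 42.0% and 33.8%. Mup11 made up 16.3% and 10.8% in the libraries labelled control against 5.95% and 1.81% in those labelled oncogene. In the library labelled LPD oncogene the counted Mup UMIs were thus mostly those of darcin.

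Nuclei of other cell classes, such as endothelial-like and Kupffer-like nuclei, should lack Mup RNA, and the Mup UMIs counted in them serve as the background level. Their source, such as free RNA or hepatocyte RNA in mixed droplets, was not tested. At 1000 UMIs, the 10% of these nuclei with the most Mup UMIs held 22.3% and 24.9% of them in the CD libraries and 54.2% in each LPD library. In the CD libraries this level was as high as that of hepatocytes in CPM: the sum of 6 was 4151 and 3008 CPM in other classes against 3533 and 2230 CPM in hepatocytes. In the LPD libraries it was below it, at 3607 and 2078 CPM against 4871 and 3420 CPM. Per nucleus, hepatocytes held more Mup UMIs in every library, 20.7, 12.6, 12.8 and 9.41 against 7.29, 5.14, 3.93 and 2.19, but hepatocyte nuclei were also deeper, with medians of 4786, 4048, 2243 and 2282 UMIs against 1225, 1217, 836 and 876.

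Among nuclei of 700 to 1500 UMIs, depth was held the same in both kinds of nuclei. There the sum of 6 was 6.49 (6.30 to 6.68) UMIs per hepatocyte nucleus against 5.99 (5.85 to 6.13) in other classes in the library labelled CD control, and 4.96 (4.83 to 5.10) against 4.05 (3.95 to 4.15) in that labelled CD oncogene. It was 10.5 (10.4 to 10.7) against 3.18 (3.07 to 3.29) in the library labelled LPD control and 8.23 (8.09 to 8.37) against 1.74 (1.67 to 1.80) in that labelled LPD oncogene. A clear excess of Mup RNA in hepatocyte nuclei of this depth was therefore measured in the LPD libraries and only a small one in the CD libraries. In library order the window held 698, 1117, 1864 and 1649 of 7979, 9665, 7754 and 6833 hepatocyte nuclei. It held 1139, 1626, 1012 and 1777 of 2081, 2527, 1802 and 2873 nuclei of other classes. On CD it thus covers only shallow hepatocyte nuclei, which may not stand for the rest.

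The share of nuclei with a UMI, after thinning each nucleus to 1000 UMIs, was compared in the same way. A Mup20 UMI was found in 59.4%, 53.6%, 72.7% and 76.1% of hepatocyte nuclei, and in 78.5%, 70.4%, 51.0% and 47.0% of nuclei of other classes. For Mup3 the shares were 64.9%, 56.4%, 80.6% and 61.6% in hepatocytes, and 72.5%, 67.0%, 54.4% and 36.8% in other classes. In the LPD libraries these shares lay above those of the other classes. In the CD libraries they lay below, whereas per nucleus of 700 to 1500 UMIs hepatocytes held slightly more of both genes (Mup20 2.51 against 2.41 and 2.22 against 1.82, Mup3 2.25 against 2.04 and 2.14 against 1.69 UMIs), so the CD shares are not read as expression or as its absence. For Mup11 the shares were 37.0%, 11.1%, 29.6% and 5.40% in hepatocytes against 42.7%, 16.002%, 26.1% and 3.45%, and those of Mup17 were at most 7.83% in hepatocytes. Without thinning, a Mup20 UMI was in 94.2%, 89.8%, 91.3% and 93.5% of hepatocyte nuclei, and thinning left out 599, 511, 529 and 449 of them.

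Within hepatocytes, the Mup sum varied between nuclei. At 1000 UMIs a nucleus held a median of 3, 2, 4 and 3 Mup UMIs, 10.5%, 21.3%, 3.40% and 10.996% of nuclei held none, and the 10% of nuclei with the most held 30.8%, 41.2%, 36.0% and 36.2% of the Mup UMIs. In every library the sum was higher at each step of mitochondrial share. Hepatocyte nuclei with at least 2% mitochondrial UMIs had 5351, 5031, 30080 and 16931 CPM. Those with 0.1% to 0.5% had 1321, 966, 4615 and 3122 CPM. In this range of mitochondrial share both LPD libraries lay above both CD libraries. Depth was not matched there, with median UMIs of 8852, 5923, 1866 and 1969 in library order. Over all hepatocyte nuclei the order of the diets did not hold. There the library labelled LPD oncogene (3420 CPM) lay below that labelled CD control (3533 CPM). The hepatocyte cluster with the highest Mup CPM in each library was led by haemoglobin genes and Saa1. It had 10465, 11051, 31319 and 16914 CPM and median mitochondrial shares of 4.13% to 10.8%. It is among the 2 low-quality clusters left out in an alternative below, and the ranking was not made per nucleus.

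Each hepatocyte nucleus was given an index, the share of pericentral UMIs among the UMIs of 16 pericentral and 13 periportal markers. No marker is a Mup gene. The index reads marker expression and not position itself. The study reports that oncogene-expressing hepatocytes, mostly located outside the pericentral area, took on pericentral-like expression, with high Glul, Cyp2e1, Cyp1a2 and Lgr5. These genes are among the pericentral markers, so such nuclei can be called pericentral wherever they lie. Nuclei with an index up to 0.0769 were called periportal and those above 0.429 pericentral, and nuclei with under 5 such UMIs were not placed. Periportal nuclei numbered 1171, 3736, 3482 and 1994, and pericentral nuclei 4075, 2394, 1557 and 1846. The library labelled CD control held the largest pericentral share, 51.1% of its hepatocyte nuclei against 20.1% to 27.0%, so its levels over all hepatocytes weight pericentral nuclei more. It also held the most transgene UMIs, so this share is not read as a share of positions in the lobule.

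Mup11 and Mup17 were higher in pericentral nuclei in all 4 libraries. Mup11 went from 383, 73.7, 170 and 16.5 CPM in periportal to 658, 214, 1368 and 131 CPM in pericentral nuclei. The log2 ratios were 0.78, 1.54, 3.01 and 2.99, with a mean of 2.08 ± 1.11 (SD, n = 4 libraries). Mup17 went from 45.5, 13.5, 15.7 and 2.497 to 123, 46.0, 259 and 21.5 CPM, a mean log2 ratio of 2.59 ± 1.21 (SD, n = 4). In the LPD libraries the periportal nuclei held fewer Mup11 and Mup17 UMIs per nucleus than other cell classes, so these periportal levels are background and the ratios rest on pericentral nuclei. In the CD libraries the periportal CPM also lay below other classes, which held 567 and 162 CPM of Mup11 and 90.3 and 26.9 CPM of Mup17. Per nucleus, in deeper nuclei, the CD periportal levels lay above those of other classes. The thinned share of nuclei with a Mup11 UMI went from 30.3%, 7.56%, 15.02% and 2.12% in periportal to 40.4%, 17.1%, 61.7% and 11.5% in pericentral nuclei. In other classes it was 42.7%, 16.002%, 26.1% and 3.45%, so on CD the pericentral shares were near the background level.

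Mup20, Mup3 and Mup21 were lower in pericentral nuclei in all 4 libraries. Mup20 went from 1966, 1292, 1847 and 2459 CPM in periportal to 807, 457, 1653 and 1490 CPM in pericentral nuclei, a mean log2 ratio of -0.92 ± 0.60 (SD, n = 4). In the CD libraries these pericentral levels lay below those of other classes, 1694 and 1399 CPM. Mup3 went from 1799, 1247, 2063 and 1522 to 994, 560, 1984 and 751 CPM, a mean of -0.77 ± 0.49 (SD, n = 4). The gradient was small in the library labelled LPD control, at -0.16 for Mup20 and -0.06 for Mup3, and counted per nucleus Mup3 was there 0.08 higher on the log2 scale in pericentral nuclei. Mup21 went from 79.98, 36.0, 128 and 41.7 to 37.5, 16.6, 73.2 and 17.9 CPM, a mean of -1.06 ± 0.18 (SD, n = 4), the most even of the 6 genes across libraries. Albumin was lower in pericentral nuclei too, going from 9863, 5090, 5668 and 7358 to 5421, 2474, 4134 and 4925 CPM. Median mitochondrial shares were higher in periportal than in pericentral nuclei on CD (2.26% against 1.43% and 0.70% against 0.42%). On LPD they were lower (0.070% against 0.112% and 0.080% against 0.118%). With at least 500 genes and at most 5% mitochondrial UMIs, the Mup20 ratios were -0.48, -0.84, -0.38 and -0.85. These, like those of Mup3 and Mup21, were smaller in size on CD and larger on LPD.

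Mup7 had no common direction. Its log2 ratios of pericentral over periportal CPM were -0.22, -0.38, 1.39 and 0.02, and the last interval (-0.16 to 0.20) included 0. The sum of 6 was lower in pericentral nuclei in 3 libraries, with log2 ratios of -0.67, -1.01 and -0.72, and higher in the library labelled LPD control, at 0.41 (0.39 to 0.44). In that library the pericentral nuclei held 5931 CPM of the 6 genes, the highest level of the 12 sets of a library and a zone.

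Over the 4 libraries, the exact two-sided sign-flip permutation test of the mean log2 ratio gave p = 0.125 for Mup3, Mup11, Mup17, Mup20 and Mup21 and p = 0.875 for Mup7, or 0.15 and 0.875 after Benjamini-Hochberg adjustment over the 6 genes. This design cannot give a p under 0.125. Of 5584 genes measured in all 4 libraries, 25.5% were higher in pericentral nuclei in every library, as 2 of the 6 Mup genes were, and 15.8% were lower in every library, as 3 of the 6 were. Within libraries, with a pseudocount of 5 CPM, 1, 2, 3 and 2 of the 6 genes were at least 2-fold higher in pericentral nuclei, where 2.36%, 2.24%, 2.39% and 1.91% of all genes were. Conversely, 1, 2, 0 and 2 were at least 2-fold lower, where 1.71%, 1.86%, 2.11% and 2.25% were. A ratio of at least 2-fold in all 4 libraries, on CPM + 5, was reached by 1.15% of genes, among them Mup17, whereas Mup11 reached 2-fold in 3 libraries. Where the zones were set by a Glul UMI alone, Glul being the glutamine synthetase of the innermost pericentral hepatocytes, Mup11 was lower in nuclei with the UMI in the library labelled CD control (log2 ratio -0.30).

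**Figure D2:**
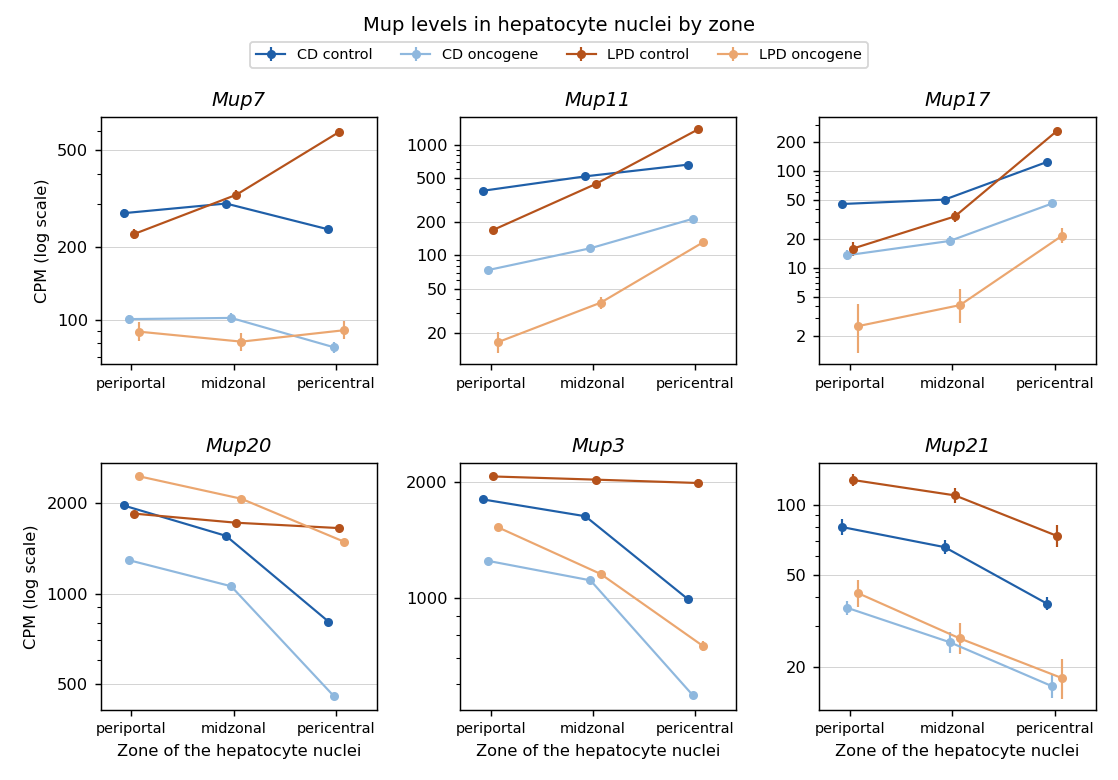
CPM of each Mup gene on a log axis in periportal, midzonal and pericentral hepatocyte nuclei, with a line for each library and bars for 95% counting intervals. Mup11 and Mup17 climb from periportal to pericentral nuclei in all 4 libraries, Mup20, Mup3 and Mup21 descend, and Mup7 climbs clearly only in the library labelled LPD control.

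The thinned share of nuclei with a Mup20 UMI went from 67.9%, 57.9%, 75.1% and 82.0% in periportal to 52.7%, 40.7%, 66.5% and 65.3% in pericentral nuclei. In the LPD libraries it stayed above the share in other classes in every zone. A Mup17 UMI was found in 10.6%, 4.33%, 19.6% and 2.06% of pericentral nuclei, against 8.97%, 3.12%, 5.37% and 0.280% of nuclei of other classes.

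**Figure D3:**
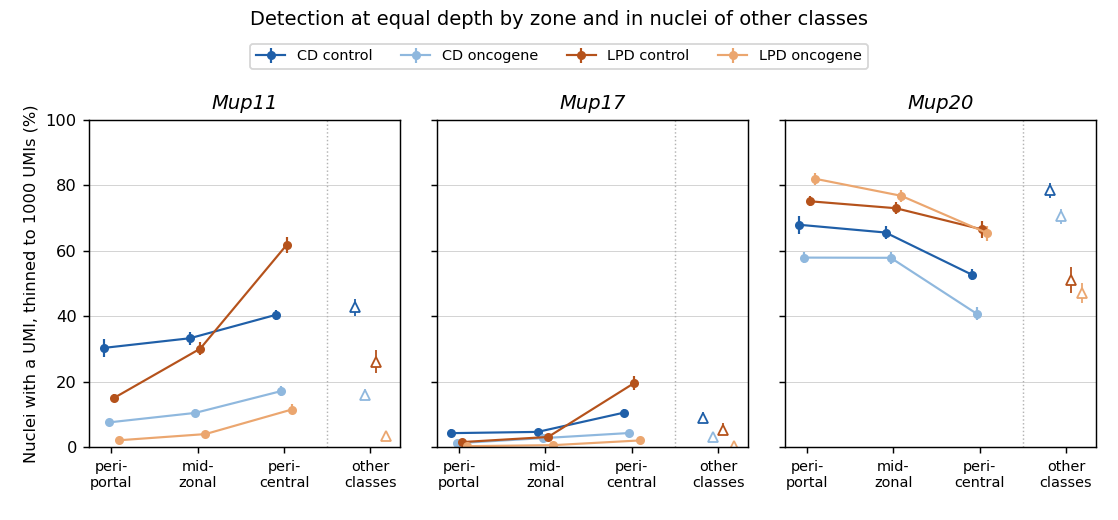
Percent of nuclei with at least 1 UMI of Mup11, Mup17 or Mup20 after thinning to 1000 UMIs, by zone in hepatocytes (filled circles, joined by a line for each library) and in other cell classes (open triangles), with 95% exact binomial intervals. Mup20 in hepatocytes lies below the other classes in each zone of the CD libraries and above them in each zone of the LPD libraries, and Mup11 reaches 61.7% in pericentral nuclei of the library labelled LPD control.

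The zones also differed in the make-up of the Mup UMIs. Mup11 made up 8.42%, 2.67%, 3.81% and 0.3998% of the UMIs of the 6 genes in periportal nuclei, and 23.04%, 15.6%, 23.07% and 5.24% in pericentral nuclei. The share of Mup20 was lower in pericentral than in periportal nuclei in 3 libraries, at 28.3% against 43.2%, 33.3% against 46.8% and 27.9% against 41.5%. In the library labelled LPD oncogene it was the same in both zones to within counting error, 59.6% against 59.5%.

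**Figure D4:**
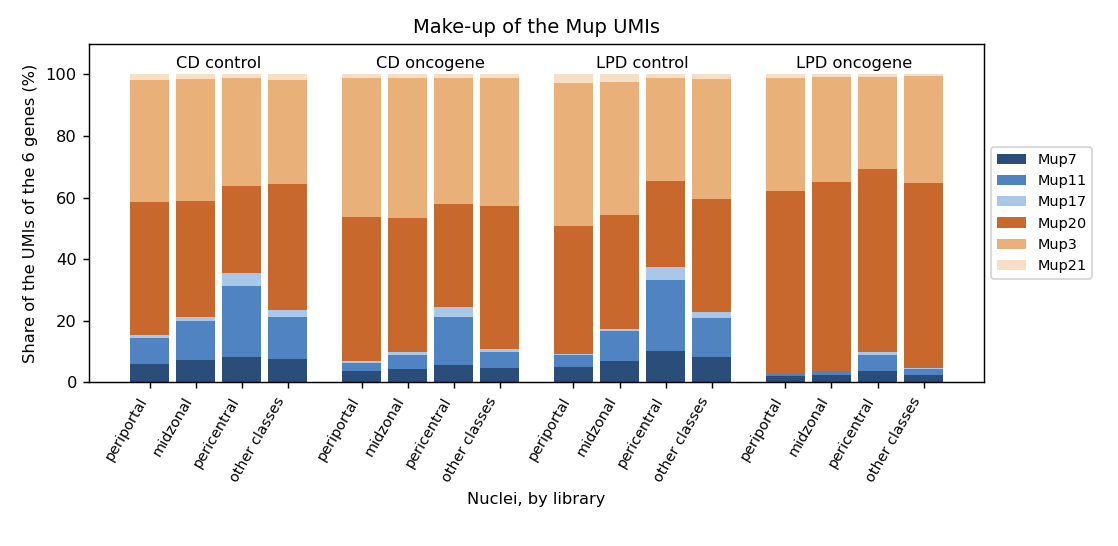
Share of each gene among the UMIs of the 6 Mup genes, in percent, in periportal, midzonal and pericentral hepatocyte nuclei and in nuclei of other classes, for each library. The share of Mup11 is largest in pericentral nuclei of each library, 23.04%, 15.6%, 23.07% and 5.24%, and Mup20 takes 59.5% to 61.4% in every set of the library labelled LPD oncogene.

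Libraries labelled oncogene were compared with those labelled control. On CD the transgene UMIs contradict these labels, with 100 in the library labelled control and 0 in that labelled oncogene. The CD ratios are therefore given by label and are not read as a difference due to c-MET and β-catenin. On CD, the library labelled oncogene was lower for all 6 genes in hepatocytes, with log2 ratios of -2.12 (-2.15 to -2.08) for Mup11, -1.81 (-1.89 to -1.72) for Mup17, -1.48 (-1.53 to -1.43) for Mup7, -0.996 (-1.09 to -0.90) for Mup21, -0.41 for Mup3 and -0.36 for Mup20. On LPD it was lower for 5 genes, with -3.09 (-3.17 to -3.00) for Mup11, -3.05 (-3.28 to -2.82) for Mup17, -1.99 (-2.13 to -1.85) for Mup21, -1.98 (-2.06 to -1.90) for Mup7 and -0.82 for Mup3. Mup20 was slightly higher, at 0.23 (0.21 to 0.25). The sum of 6 was lower for the oncogene label on both diets, with log2 ratios of -0.66 on CD and -0.51 on LPD.

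With a pseudocount of 5 CPM, 3 of the 6 genes were at least 2-fold lower on CD, where 2.04% of 6466 genes were, and 4 of 6 on LPD, where 1.02% of 6851 genes were. At least 2-fold higher were 0 of the 6 on either diet, where 2.41% and 1.55% of genes were. The median over all genes tested was -0.11 on CD and -0.02 on LPD, against -1.16 and -1.87 over the 6 Mup genes. At least 2-fold lower on both diets were 9 of 6076 genes (0.148%). These were Mup7, Mup11, Mup17, Mup1, the fatty acid synthase Fasn, the steroid dehydrogenase Hsd3b5, the methyltransferase Inmt, and the nuclear receptors Nr0b2 and Nr1d1. At least 2-fold higher on both diets were 0.23% of genes, and 0 of the 6. The Mup genes among the lower ones share reads and are not independent of each other. This list rests on the CD labels as given. With them exchanged, 13 of 6076 genes (0.214%) were at least 2-fold lower on both diets, among them Bcl6 and Pck1, and 0 of them were Mup genes, since all 6 would then be higher for the oncogene label on CD.

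The low values were present in every zone and also outside hepatocytes. Mup11 was lower by log2 ratios of -2.38, -2.16 and -1.62 in periportal, midzonal and pericentral nuclei on CD, and -3.36, -3.56 and -3.38 on LPD. In the other cell classes, where Mup UMIs serve as background, the ratios of Mup11 were -1.81 on CD and -3.38 on LPD, and those of the sum of 6 were -0.46 and -0.80. The difference between the labels was thus present in nuclei outside the hepatocyte class as well. Mup20 on LPD was higher in periportal nuclei of the library labelled oncogene (0.41), by less in midzonal nuclei (0.27), and lower in pericentral nuclei (-0.15).

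**Figure D5:**
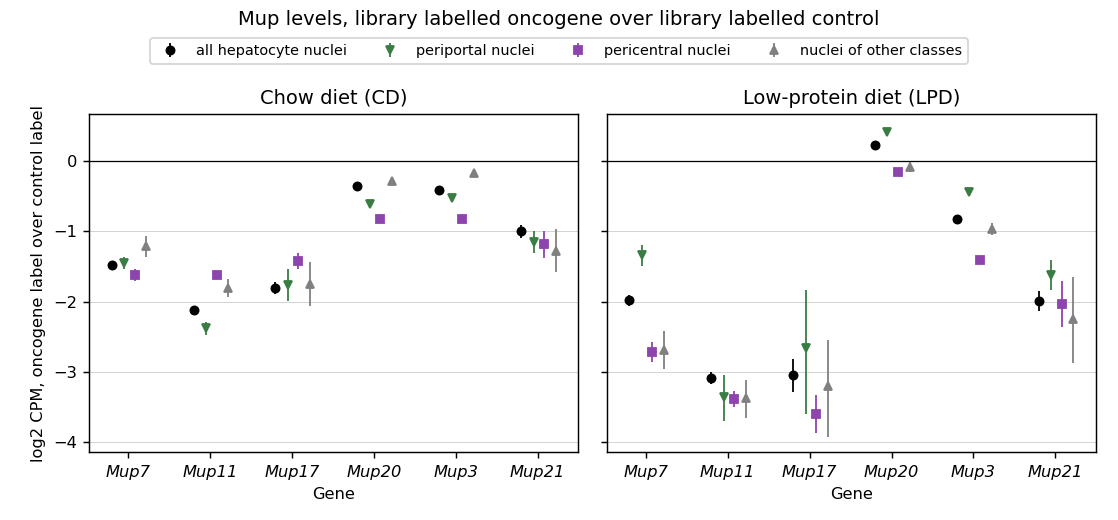
Log2 ratio of CPM, oncogene over control label, for each Mup gene on CD (left) and LPD (right), in all hepatocyte nuclei, periportal nuclei, pericentral nuclei and nuclei of other classes, with 95% counting intervals. Mup7, Mup11, Mup17 and Mup21 lie near or below -1 in every set on both diets, and Mup20 on LPD lies around 0, from -0.15 to 0.41.

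Because the transgenes contradict the CD labels, LPD was compared with CD in all 4 pairs of libraries, which share libraries with each other. Mup20 was higher on LPD in each pair, with log2 ratios of 0.53 for the control labels, 1.11 for the oncogene labels, 0.89 for LPD control over CD oncogene, and 0.76 for LPD oncogene over CD control. It was past 2-fold in 1 pair. Mup11 and Mup17 were lower in 3 pairs, with ratios for Mup11 of -0.14, -1.10, 1.98 and -3.22 in the same order. Mup3 was higher in 3 pairs (0.63, 0.22, 1.05 and -0.19), as was Mup21 (1.04, 0.04, 2.03 and -0.95), whose second value has an interval from -0.10 to 0.19. The sum of 6 was at 0.46, 0.62, 1.13 and -0.05.

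With the pseudocount, 0, 1, 5 and 0 of the 6 genes were at least 2-fold higher in these pairs, where 7.03%, 8.82%, 8.06% and 7.32% of all genes were. Conversely, 0, 2, 0 and 3 were at least 2-fold lower, where 3.9%, 4.09%, 3.87% and 3.75% were. The pair of LPD control over CD oncogene, which crosses diet with label, gave the highest count. In pericentral nuclei all 6 genes were higher on LPD for the control labels, with log2 ratios of 0.97 to 1.33. In periportal nuclei the same pair gave -1.53 for Mup17, -1.17 for Mup11, -0.29 for Mup7, -0.09 for Mup20, 0.20 for Mup3 and 0.67 for Mup21. For the oncogene labels the pericentral pattern was mixed. There the ratios were 1.71 for Mup20, 0.42 for Mup3, 0.23 for Mup7, 0.11 (-0.22 to 0.44) for Mup21, -0.70 for Mup11 and -1.10 for Mup17. The depth and mitochondrial share of the nuclei moved with diet. In nuclei with at most 0.5% mitochondrial UMIs the mean log2 ratio of the sum of 6 over the 4 pairs was 1.61, against 0.54 in all hepatocyte nuclei. Depth was not matched in these nuclei.

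The library labelled CD control contained 86 hepatocyte nuclei, of 7979, with a UMI of human MET or CTNNB1 (1.08%), and 83 of these were pericentral by the index. The index does not give the place in the lobule of nuclei with a transgene UMI. The other libraries held 0, 0 and 6 such nuclei, too few for a comparison. Nuclei with a transgene UMI had a lower Mup CPM: the sum of 6 was 1228 CPM in them and 3574 CPM in the others, a log2 ratio of -1.54 (-1.63 to -1.45). Both lay below the 4151 CPM of other cell classes in this library, and mitochondrial share was not matched. All 6 genes were lower, from -1.10 (-1.39 to -0.81) for Mup7 to -2.47 (-3.68 to -1.49) for Mup21, the latter on 8 UMIs. Among pericentral nuclei alone the ratio of the sum was -1.29 (-1.39 to -1.20). The nuclei with a transgene UMI were deeper, with a median of 7337 against 4759 UMIs, and per nucleus the sum was lower by a log2 ratio of -0.84.

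Genes that are known to act on Mup expression or to share its sex bias were read from fixed lists. Mup genes belong with the male-biased genes of mouse liver, and many others of that list were lower on LPD: 10 of 16 tested genes were at least 2-fold lower for the control labels, 8 of 17 for the oncogene labels, 12 of 17 for LPD control over CD oncogene and 9 of 16 for LPD oncogene over CD control. Over all genes the shares lower were 3.9%, 4.09%, 3.87% and 3.75%. At least 2-fold higher in these pairs were 1, 1, 3 and 0 of the list, where 7.03%, 8.82%, 8.06% and 7.32% of all genes were. Selenbp2, a selenium-binding protein, was at 367, 572, 12.2 and 26.9 CPM in library order. The fatty acid hydroxylase gene Cyp4a12a was at 170, 100.7, 8.07 and 17.3 CPM, and its neighbour Cyp4a12b at 170, 78.8, 3.62 and 5.64 CPM. Both LPD libraries were far below both CD libraries for each of these genes, an order that none of the 6 Mup genes had, but that Mup14 and Mup10 had with smaller differences. Cyp7b1, an oxysterol hydroxylase, was at 2751, 1286, 415 and 536 CPM, and Serpina1e, a protease inhibitor, at 1119, 1129, 405 and 133 CPM.

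Only 2 of the 19 female-biased genes were measured well enough in the diet pairs, and both were higher on LPD. Cux2, a female-specific transcription factor of mouse liver, was at 0.450, 0.311, 175 and 136 CPM, and Nipal1 was at 2.61, 5.57, 22.3 and 30.8 CPM. The Y-linked gene Ddx3y was at 116, 96.5, 101.3 and 103 CPM and the X-inactivation RNA Xist at 0.81, 0.60, 0.47 and 0.17 CPM, so Cux2 did not move with a marker of sex.

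The growth hormone axis and known regulators of Mup genes had no common direction. Ghr, the growth hormone receptor, was at 10487, 8039, 6533 and 4570 CPM, lower in both LPD libraries than in both CD libraries. Stat5b was at 251, 454, 434 and 358 CPM. Bcl6, a repressor that competes with Stat5b, was at 204, 415, 574 and 207 CPM, and Zhx2, also listed as a Mup regulator, at 141, 191, 228 and 228 CPM. Some members outside the naming rule, chosen after their values were seen, differed by more. Onecut1, a hepatocyte transcription factor also called HNF6, was at 691, 409, 52.4 and 785 CPM, a log2 ratio of 3.78 for the oncogene label on LPD and -3.60 for LPD over CD in the control labels. Among the growth hormone targets, Igf1 was at 1699, 875, 793 and 2257 CPM, Socs2 at 34.2, 106, 64.3 and 381 CPM and Cish at 51.2, 52.9, 14.5 and 75.6 CPM. All 4 genes were highest in the library labelled LPD oncogene, where Ghr of the same list was lowest (4570 CPM). Since they were picked by their values, no link with the Mup levels is read from them. For the oncogene labels, the list held 2 higher and 1 lower of 15 genes on CD, and 5 higher and 1 lower of 14 on LPD. In the 4 diet pairs 5 of 15, 0 of 15, 2 of 14 and 1 of 15 were at least 2-fold lower on LPD and 1, 3, 0 and 1 higher. Several of these counts are near the shares over all genes given above, at which 0 or 1 of 15 genes would be called.

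Of 22 genes of other secreted plasma proteins, 0 were at least 2-fold lower for the oncogene label on either diet, as 2.04% and 1.02% of all genes were, so this count does not set them apart from genes in general. Their median log2 ratios were -0.01 on CD and 0.16 on LPD. For Alb, which encodes albumin, the levels were 7475, 4280, 5117 and 6392 CPM. Rbp4, the retinol carrier and itself a lipocalin, was at 371, 384, 832 and 818 CPM, higher in both LPD libraries.

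Across the 12 sets of a library and a zone, Pearson's r on log2(CPM + 5) described which Mup genes went together. It was 0.95 for Mup11 with Mup17, 0.92 for Mup3 with Mup21 and 0.84 for Mup7 with Mup11, against -0.27 for Mup20 with Mup11 and -0.39 for Mup20 with Mup17. Outside the family, of 7229 genes, the sum of 6 was most like Cox7b and Atp5a1 (both 0.92), which encode subunits of the respiratory chain and of ATP synthase, Laptm4a (0.91), the kinase Map2k6 (0.91) and Nlrc5 (0.91). The 12 sets share 4 libraries, their depth and their mitochondrial share, and no p-value is given.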

How the data were processed

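The values the authors deposited were raw UMI counts for every gene in every barcode, made with Cell Ranger 9.0.1 per the file headers from reads aligned to mm10 with the human c-MET and CTNNB1 sequences added. Whether intronic reads were counted is not given in the sources used here. Nuclei with 200 to 7000 genes and at most 21% mitochondrial UMIs were kept (10397, 12552, 9825 and 10103, with medians of 3807, 3294, 1962 and 1762 UMIs). The study's own nuclei count for each CD group lay nearer the CD library with the other label.

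Nuclei were clustered with scikit-learn 1.9.0 and python-igraph 0.11.9 (5000 variable genes, 23 components corrected for library, 20 neighbours, Louvain resolution 0.4). Clusters were named from marker lists, and 3 mixed clusters were left out, as were a proliferating cluster of 209 nuclei and a cluster of 1 nucleus. Scrublet was run in scanpy 1.11.5. Its automatic threshold marked 1 nucleus in all and did not work, so an alternative left out the 8% highest scores. UMIs were summed per library, class and zone and scaled to CPM. Ratios carry exact conditional 95% intervals, and shares exact Clopper-Pearson intervals, for counting error only. Comparisons over all genes used genes with at least 20 CPM in 1 library and 50 UMIs over both, a pseudocount of 5 CPM and a 2-fold threshold. TMM factors came from edgeR 4.0.16, with no test. All 6 genes were named in each comparison, with the 3 other Mup features of highest CPM, the 5 genes most like the sum, and from each list at most 5 genes past 2-fold in all 4 diet pairs, plus Ghr, Stat5b, Bcl6, Zhx2 and Cux2 whatever their values; Igf1 and Alb were added. Scripts were tested on simulated data. Members, lists and tests were chosen with earlier results of these data known.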

Additional observations from a re-analysis of the deposited data

Results flagged for a closer look

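The zone difference of Mup7 went in opposite directions on the 2 diets. Its log2 ratio of pericentral over periportal CPM was -0.22 for the control label and -0.38 for the oncogene label on CD, and 1.39 and 0.019 on LPD. The last interval included 0, and with 1 library per group the difference was not tested. Few bases of Mup7 are its own, and reads of its close paralogs cannot be told apart from it over most of the transcript.

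The difference of Mup20 between injection labels also changed sign with diet, with a log2 ratio of oncogene over control of -0.36 on CD and 0.23 on LPD. This difference was not tested either, and the CD direction depends on labels that the transgene UMIs contradict.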

How the results depend on the processing

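No paired analysis was possible because each group has 1 library. With the CD labels exchanged, chosen after seeing the data, every CD ratio of oncogene over control turns its sign (0.66 for the sum of 6). Under the other alternatives, no ratio of a single gene between labels turned its sign, nor did a mean ratio over zones or diet pairs except for Mup7, which kept it in 11 of 12 alternatives for the mean zone ratio and in 8 of 11 for the mean ratio of LPD over CD, and had a mean zone ratio of -0.20 without the library labelled LPD control. Zone ratios within single libraries did turn: Mup11 to -0.30 with zones set by Glul under the label CD control, Mup3 and Mup20 in some settings under the label LPD control, and Mup7 in several libraries. Under the other alternatives Mup7, Mup11 and Mup17 stayed at least 2-fold lower for the CD oncogene label under 11 of 11 alternatives, and on LPD Mup11, Mup17 and Mup21 did so under 12 of 12 and Mup7 under 11 of 12. With the CPM of other classes subtracted, Mup7 on LPD was at -0.10, so its difference between labels nearly vanished, and these genes had no CD ratio. In the zones, Mup11 and Mup17 kept their direction under 11 of 11 and Mup3, Mup20 and Mup21 under 12 of 12 alternatives.

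The sum of 6 for oncogene over control on CD (-0.66) was -0.58 with at least 500 genes and at most 5% mitochondrial UMIs, -0.55 with at most 0.5% mitochondrial UMIs, -0.71 without mitochondrial and Mup genes in the denominator, -0.52 with TMM factors, -0.46 as the mean over nuclei, -0.40 thinned, -0.86 with hepatocytes called by marker UMIs, -0.79 as the excess per nucleus over other classes, and -0.94 without 2 low-quality clusters, the last 2 choices added after seeing the data. On LPD (-0.51) the same settings gave -0.48, -0.47, -0.52 (TMM factors), -0.43, -0.45, -0.32, -0.37 and -0.47, and clusters without library correction gave -0.47. Subtracting the CPM of other classes reversed it to 0.086 and gave no value in the CD libraries, where the difference was negative (-618 and -778 CPM). That setting removes a CPM measured in shallower nuclei. The mean ratio of LPD over CD (0.54) was 1.23 and 1.61 under the first 2 filters, which did not match depth. Leaving out each library in turn gave a mean zone ratio of the sum between -0.80, without the library labelled LPD control, and -0.33.

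The ratio in nuclei with a transgene UMI (-1.54) was -1.29 in pericentral nuclei, -1.24 thinned (-1.34 in another random draw) and -0.84 per nucleus, the last added later. A 1.5-fold threshold raised the genes lower for the oncogene label from 132 to 517 on CD, from 70 to 258 on LPD and from 9 to 32 on both. With the CD labels exchanged these were 156 on CD and 13 on both. Depth limits Mup17 and Mup21 most, at under 10% of thinned hepatocyte nuclei.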
